A study of Mus musculus with 35 samples.

Results

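The CYP2 family was taken as every 400-bp accessible region whose nearest annotated gene is Cyp2a to Cyp2j and whose centre lies within 100 kb of that gene's start site. The rule gave 462 of the 177904 regions in the merged table, assigned to 43 genes of 8 subfamilies: 64 to CYP2A, 38 to CYP2B, 149 to CYP2C, 137 to CYP2D, 21 to CYP2E, 22 to CYP2F, 5 to CYP2G and 26 to CYP2J. The filter on low values kept 457 of them and removed 5, which are 2 CYP2A and 3 CYP2C regions. The regions lie on chromosome 7 (150), 19 (149), 15 (137) and 4 (26). Of the 462, 49 lie within 1 kb of a start site, 178 at 1 to 10 kb and 235 farther away, up to 85.8 kb. By their mm10 annotation 268 are intergenic, 115 intronic and 42 promoter regions, and the rest fall in transcription end sites (17), exons (12), 3′ UTRs (7) and a non-coding transcript (1). By RefSeq gene bodies 149 lie inside the gene they are named for and 64 inside a gene outside the family, so a gene name here means the nearest start site and not a measured target. Adjacent regions are not independent, since 201 of the 462 overlap a neighbour.

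Accessibility was measured by ATAC-seq, in which a transposase inserts sequencing adapters into open DNA, on hepatocyte nuclei isolated through a nuclear-envelope tag (the INTACT method). All mice carried CAG-Sun1/sfGFP and Albumin-Cre, so the tag marks cells in which the Albumin promoter has driven Cre. Syngeneic tumors that cause cachexia were C26 in BALB/c mice and 8025 in C57BL/6N mice, and weight-stable tumors were NC26 in BALB/c mice and MC38 in C57BL/6N mice. Each of the 4 cohorts had its own control mice injected with PBS. The C26 cohort was sampled as PBS, pre-cachexia and cachexia, the 8025 cohort as cachexia and PBS, and the NC26 and MC38 cohorts as tumor and PBS. Groups held 4 libraries each, except 8025 PBS with 3, for 35 libraries in all. Livers of C26 and 8025 cachexia were taken once weight loss passed 10%. The collection time was ZT 9 for all 35 libraries. Strain goes with tumor line, so a cohort was compared with its own PBS mice. The labels give every library its own animal, and p-values measure the spread between animals.

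CYP2 enzymes are heme monooxygenases of the endoplasmic reticulum that take electrons from cytochrome P450 reductase and oxidise drugs, solvents, steroids, fatty acids and, for some mouse members, bile acids. In rodent liver many of them are expressed in sex-biased fashion under the pattern of growth hormone secretion, others are induced by xenobiotics through the nuclear receptors CAR and PXR, and several are restricted to pericentral hepatocytes. The mouse family arose by local duplications into gene clusters, so that many members and their flanks are near copies. Reads from near copies may be placed on either, and the origin of signal in such regions is uncertain.

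The promoter sequences below belong to the genes on which the results turn: the genes whose main promoter region changed in a cachexia comparison (Cyp2d9, Cyp2f2, Cyp2c39 and Cyp2c38), the close copy Cyp2d10, Cyp2c70 with the most regions that became more accessible, and Cyp2e1, at whose locus no region was called. Each is the RefSeq GRCm38.p6 sequence of the 250 bases before the annotated start, read 5′ to 3′ on the gene's strand. The windows are chr15:82452127-82452376 (plus strand) for Cyp2d9, chr15:82407195-82407444 (minus) for Cyp2d10, chr7:27119705-27119954 (plus) for Cyp2f2, chr19:39510572-39510821 (plus) for Cyp2c39, chr19:39463076-39463325 (minus) for Cyp2c38, chr19:40187287-40187536 (minus) for Cyp2c70 and chr7:140763569-140763818 (plus) for Cyp2e1. Between 232 and 250 of the 250 bases lie inside the measured region. Capitals mark exact matches to TATAA on the gene's strand at 40 to 20 bases before the start, and to AGGTCA (a nuclear receptor core site) or CAAAGTCCA (an HNF4A-type site) on either strand.
Cyp2d9: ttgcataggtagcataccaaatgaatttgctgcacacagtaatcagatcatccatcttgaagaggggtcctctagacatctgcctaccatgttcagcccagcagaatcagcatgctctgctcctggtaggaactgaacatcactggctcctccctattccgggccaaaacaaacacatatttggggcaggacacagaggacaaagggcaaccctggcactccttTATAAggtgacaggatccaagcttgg
Cyp2d10: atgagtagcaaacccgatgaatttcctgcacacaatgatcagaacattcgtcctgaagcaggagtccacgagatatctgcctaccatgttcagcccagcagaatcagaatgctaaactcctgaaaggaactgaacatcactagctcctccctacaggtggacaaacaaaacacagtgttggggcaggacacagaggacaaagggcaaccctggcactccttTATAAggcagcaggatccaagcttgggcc
Cyp2f2: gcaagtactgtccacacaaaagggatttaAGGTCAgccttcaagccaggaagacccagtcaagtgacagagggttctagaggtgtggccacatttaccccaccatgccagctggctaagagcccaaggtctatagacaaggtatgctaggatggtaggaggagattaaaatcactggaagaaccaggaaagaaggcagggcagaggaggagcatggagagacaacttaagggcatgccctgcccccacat
Cyp2c39: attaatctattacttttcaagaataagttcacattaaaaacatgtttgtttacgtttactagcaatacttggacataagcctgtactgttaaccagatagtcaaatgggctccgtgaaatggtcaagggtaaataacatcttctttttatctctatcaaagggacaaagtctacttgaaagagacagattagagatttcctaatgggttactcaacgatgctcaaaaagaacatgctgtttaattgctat
Cyp2c38: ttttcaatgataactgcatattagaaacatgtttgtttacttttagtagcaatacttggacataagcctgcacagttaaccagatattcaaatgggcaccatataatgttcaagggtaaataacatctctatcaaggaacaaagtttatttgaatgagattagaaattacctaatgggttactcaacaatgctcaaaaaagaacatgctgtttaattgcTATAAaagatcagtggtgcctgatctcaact
Cyp2c70: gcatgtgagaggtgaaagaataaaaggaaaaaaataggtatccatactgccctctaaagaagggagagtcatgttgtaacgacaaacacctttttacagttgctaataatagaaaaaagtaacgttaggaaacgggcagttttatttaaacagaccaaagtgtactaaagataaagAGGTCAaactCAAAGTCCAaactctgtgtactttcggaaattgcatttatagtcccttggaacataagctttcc
Cyp2e1: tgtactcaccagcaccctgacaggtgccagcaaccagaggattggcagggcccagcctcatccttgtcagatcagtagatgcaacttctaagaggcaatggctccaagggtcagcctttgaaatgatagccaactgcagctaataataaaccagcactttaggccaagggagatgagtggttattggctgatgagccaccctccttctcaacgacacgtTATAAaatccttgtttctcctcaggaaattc

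Aligned end to end, the Cyp2d9 and Cyp2d10 windows are identical at 210 of 254 positions (82.7%), and the Cyp2c39 and Cyp2c38 windows at 174 of 266 (65.4%). The Cyp2c39 and Cyp2c38 windows are offset: the stretch that ends the former is followed by more bases in the latter. Their 65.4% thus includes bases without a counterpart in the other window. The other pairs are identical at 45.7% to 51.5%. The motif search covered the 300-base windows (250 bases before to 50 after the start) of all 32851 RefSeq promoters, of which 36 belong to 34 of the 43 genes. CAAAGTCCA is present in 6 of the 36 CYP2 windows (16.7%: Cyp2c40, Cyp2c65, Cyp2c67, Cyp2c68, Cyp2c69 and Cyp2c70) and in 0.475% of all windows. AGGTCA is present in 11 of the 36 (30.6%, against 16.3% of all), the C/EBP-like TTGCNNAA in 12 (33.3%, against 10.8%) and TATAA at the stated place in 12 (33.3%, against 3.52%), a motif added after the sequences had been seen. The STAT motif TTCNNNGAA is present in 1 CYP2 window (2.78%, Cyp2j11, against 8.3% of all), and the palindromic HNF1 motif in 0 (0.00913% of all). TTGCNNAA, TTCNNNGAA, AGGTCA and the HNF motifs were searched on both strands. A match is a run of letters and no measured binding site.

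Values are tags per 400-bp region per 10 M tags of the library, called normalised tags. Library totals were 11.3 to 23.8 M tags, except 3.47 M for NC26 tumor replicate 1, and 37.3% to 62.9% of tags fell in the merged regions. A CYP2 region averaged 10.1 normalised tags in the median (range 0.83 to 161), near the 10.9 of all regions. In the hepatocyte marker list 7 of 8 genes have a promoter region, and their summed level was 871 to 978 in C26 cachexia against 649 to 951 in C26 PBS, and 916 to 1121 in 8025 cachexia against 961 to 998 in 8025 PBS. In C26 cachexia 4 of these 7 promoters were called higher and none lower, and in 8025 none was called. Among all regions within 1 kb of a start, 7.55% were called higher and 2.88% lower in C26, and 3.02% and 3.95% in 8025. Of the macrophage markers 2 of 8 have a promoter region, and their sum was 7.13 to 12.7 in C26 cachexia against 5.09 to 12.2 in C26 PBS, and 12.1 to 19.2 in 8025 cachexia against 5.66 to 10.6 in 8025 PBS. The 2 of 6 neutrophil markers with a promoter region summed to 52.8 to 57.7 in C26 cachexia against 28.3 to 48.1 in C26 PBS, and to 46.7 to 73.6 in 8025 cachexia against 38.3 to 42.4 in 8025 PBS. The 3 of 6 cholangiocyte markers summed to 72.6 to 82.6 in C26 cachexia against 37.7 to 67.2 in C26 PBS, and to 92.1 to 120 in 8025 cachexia against 65.9 to 93.1 in 8025 PBS. The 1 of 6 endothelial markers had 10.3 to 14.8 in C26 cachexia against 7.97 to 10.2 in C26 PBS, and 7.37 to 11.2 in 8025 cachexia against 4.99 to 9.26 in 8025 PBS. The 4 of 6 stellate markers summed to 56.5 to 72.3 in C26 cachexia against 51.7 to 85.4 in C26 PBS, and to 53.04 to 75.9 in 8025 cachexia against 77.6 to 100.3 in 8025 PBS. None of the lymphocyte markers has a promoter region. Outside the hepatocyte list, the promoters of Sox9 (cholangiocyte list; 0.75) and Elane (neutrophil; 0.48) were called higher in C26 cachexia, those of Sox9 (0.52), S100a8 (neutrophil; 1.19) and Lrat (stellate; 1.02) higher in 8025 cachexia, and that of Reln (stellate; -1.24) lower in 8025 cachexia. The part of other cells in the CYP2 results was not tested.

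Chromatin at CYP2 genes lost accessibility more often than it gained it in both cachexia models. By count, most lower regions were at CYP2D and CYP2C in C26 and at CYP2D, CYP2C and Cyp2f2 in 8025. Subfamilies differ in their number of regions, and CYP2C, the largest, had more higher than lower regions in C26. By share, CYP2A had more lower regions than CYP2C in both models. In C26 cachexia 34 of 457 tested CYP2 regions were higher than in C26 PBS (7.44%, against 7.44% of all 176957 tested regions) and 61 were lower (13.3%, against 6.8% of all). In 8025 cachexia 8 were higher (1.75%, against 7.24% of all) and 46 lower (10.1%, against 5.07% of all). The median log2 change over the family was -0.06 in C26 and -0.16 in 8025, where the median of all regions was 0.00 in both. Without 8025 PBS replicate 1 the 8025 counts were 6 higher and 29 lower, and with scaling by library totals 7 higher and 25 lower. In either direction, 20.8% of CYP2 regions were called in C26 (14.2% of all) and 11.8% in 8025 (12.3% of all). A call is an adjusted p under 0.05 in limma's moderated test with Benjamini-Hochberg adjustment over all tested regions, and "higher" and "lower" below refer to called regions. A lower value in every nucleus and a loss in some of the nuclei cannot be told apart in these pooled nuclei. The summed CYP2 signal was 0.178% ± 0.0128 of the signal in all regions in C26 cachexia, against 0.201% ± 0.00527 in C26 PBS (SD, n = 4 each), and 0.172% ± 0.00746 in 8025 cachexia (SD, n = 4) against 0.199% ± 0.0120 in 8025 PBS (SD, n = 3).

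**Figure D1:**
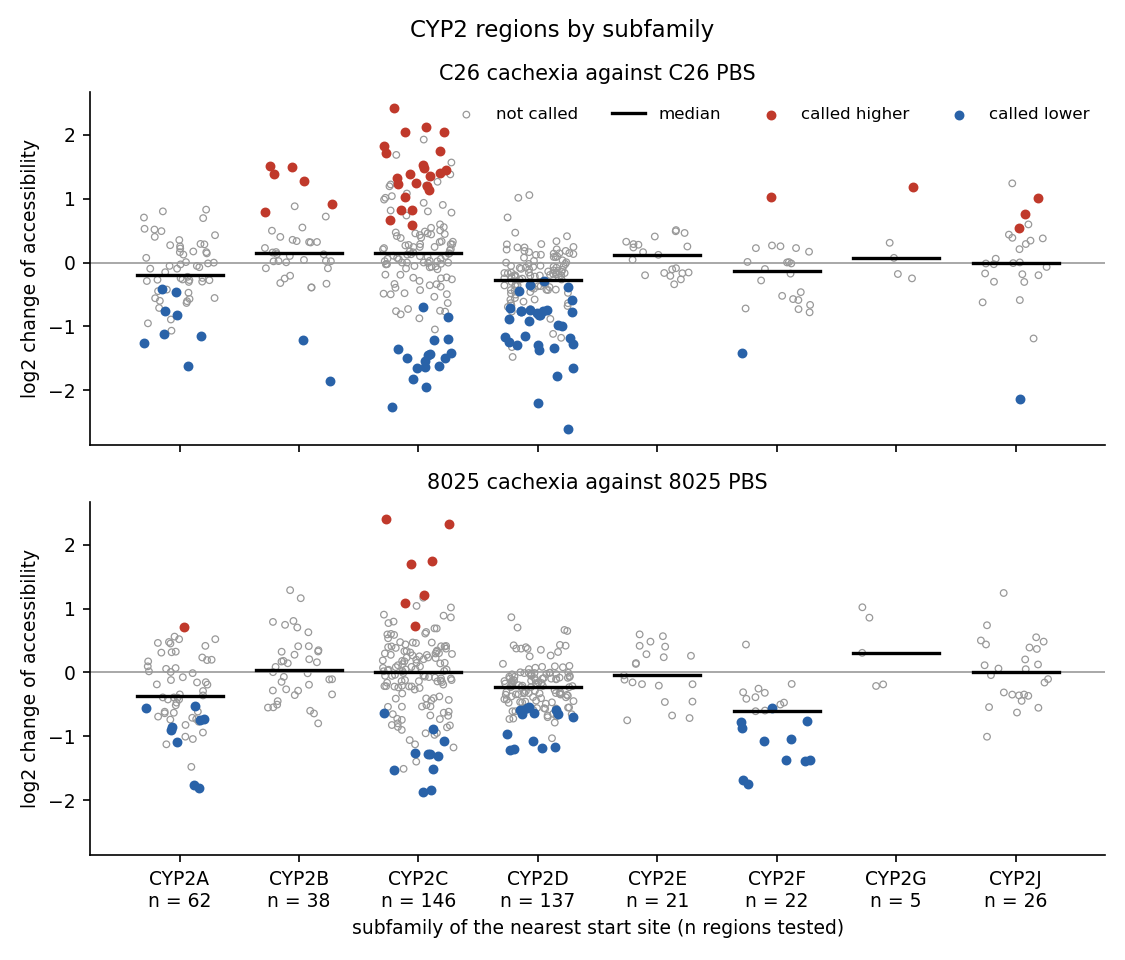
Log2 change of every tested CYP2 region in C26 cachexia against PBS and in 8025 cachexia against PBS, by subfamily; filled points are called regions and bars are subfamily medians. CYP2D has 32 lower and no higher regions in C26, CYP2F has 11 lower in 8025, and CYP2E has none called in either model.

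By share, CYP2 regions within 1 kb of a start were called less often than farther ones in C26, as all regions of the table were. In 8025 they were called about as often as those beyond 10 kb. These differences were not tested. Among regions within 1 kb of a start, 2 were higher and 3 lower in C26 and 1 higher and 4 lower in 8025, of 48 tested (10.4% called in each model, against 10.4% of all regions in that class in C26 and 6.97% in 8025). At 1 to 10 kb, 10 of 177 were higher and 27 lower in C26, and 2 higher and 24 lower in 8025 (20.9% in C26 and 14.7% in 8025, against 14.3% and 13.1% of all). Beyond 10 kb, 22 of 232 were higher and 31 lower in C26, and 5 higher and 18 lower in 8025 (22.8% and 9.91%, against 15.4% and 13.7% of all). Of the 30 genes with a region within 1 kb of the start, 29 were tested by their main promoter region, the one with the highest mean value. In C26 cachexia the main promoter regions of Cyp2c39 and Cyp2c38 were higher and that of Cyp2d9 lower, and in 8025 cachexia that of Cyp2c39 was higher and those of Cyp2d9 and Cyp2f2 lower. By gene, 9 of the 43 had only higher regions in C26, 17 only lower, 3 both and 14 none. In 8025 3 had only higher regions, 12 only lower, 2 both and 26 none.

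**Figure D2:**
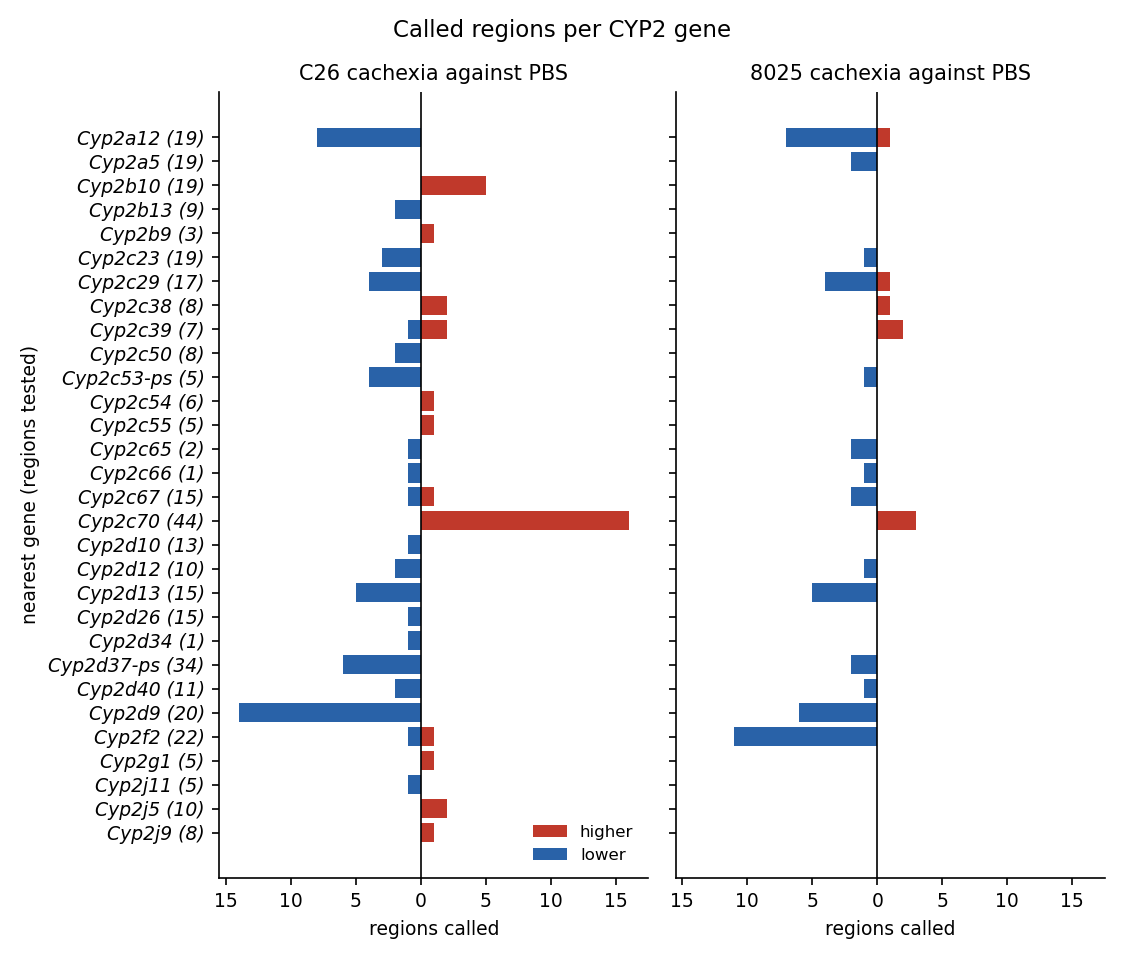
Number of regions called higher (to the right) and lower (to the left) at each CYP2 gene in C26 cachexia and in 8025 cachexia, each against its PBS group. Cyp2c70 has 16 higher regions in C26 and Cyp2d9 14 lower, and in 8025 the longest bar is Cyp2f2 with 11 lower.

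By count, CYP2D had more lower regions than any other subfamily in both models. By share it was also first in C26, but in 8025 CYP2F and CYP2A had larger shares of lower regions. Of all tested regions of the table, 6.8% were lower in C26 and 5.07% in 8025. Of 137 tested regions on chromosome 15, none was higher and 32 were lower in C26 cachexia, and none was higher and 15 lower in 8025 cachexia. The subfamily median was -0.27 in C26 and -0.23 in 8025 (log2), and 108 and 114 of the 137 changes were negative. Cyp2d9, a male-biased testosterone hydroxylase, carried 14 of the 32 in C26 and 6 of the 15 in 8025 among its 20 regions, which span 19.2 kb upstream to 12.0 kb downstream of the start. At the C26 lower regions the log2 change ran from -2.61 to -0.44, and at the 8025 lower regions from -1.21 to -0.54.

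The intergenic region 6.0 kb past the Cyp2d9 start (chr15:82458212-82458612) had 49.1, 43.02, 65.9 and 32.6 normalised tags in C26 PBS, 30.3, 35.97, 8.65 and 27.2 in pre-cachexia, and 9.5, 10.7, 9.4 and 8.57 in cachexia. It had 10.4, 11.6, 19.4 and 6.98 in 8025 cachexia, against 31.8, 23.3 and 26.2 in 8025 PBS. The cachexia and PBS libraries did not overlap in either model. The log2 change was -2.21 ± 0.27 (SE; limma adjusted p = 1e-07) in C26 and -1.21 ± 0.29 (adjusted p = 0.0033) in 8025. In C26 pre-cachexia it was -1.08 ± 0.27 (adjusted p = 0.025), a call lost without C26 PBS replicate 1 or 3, without pre-cachexia replicate 3, the library at 8.65, or with scaling by library totals, under which it was -1.003 to -0.684. The next region, at 6.5 kb (chr15:82458664-82459064) had 37.4, 31.9, 51.4 and 14.9 in C26 PBS, 24.9, 25.04, 6.22 and 20.7 in pre-cachexia, and 8.45, 5.93, 6.81 and 0.69 in cachexia. This is the largest fall of the family in C26, at -2.61 ± 0.42 (limma adjusted p = 5.4e-05), without overlap of cachexia and PBS. In 8025 the same region had 7.10, 9.45, 9.68 and 5.82 in cachexia against 18.7, 14.5 and 17.2 in PBS, which did not overlap either, but at -1.03 it did not pass (adjusted p = 0.15).

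The Cyp2d9 promoter region itself moved less. It had 80.3, 89.4, 59.6 and 54.5 normalised tags in C26 cachexia against 90.9, 103, 105 and 74.6 in C26 PBS, and these overlapped. In 8025 it had 60.04, 66.6, 63.99 and 62.3 in cachexia against 90.1, 91.7 and 87.7 in PBS, with no overlap. The log2 change was -0.44 ± 0.12 in C26 (limma adjusted p = 0.01) and -0.54 ± 0.13 in 8025 (adjusted p = 0.0043). Scaling by library totals ended both calls, at -0.41 and -0.50, and leaving out C26 cachexia replicate 3 or 4 ended the C26 call, at -0.34 at the least. Cyp2d10, whose promoter is the near copy of Cyp2d9's shown above, had a main promoter region at -0.02 in C26 and -0.19 in 8025, not called in either.

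At Cyp2d13, a transcribed pseudogene in RefSeq, 5 of 15 regions were lower in each model, between 0.1 kb upstream and 7.6 kb downstream of the start. The region at the start (chr15:82641897-82642297) had 56.5, 60.9, 45.4 and 35.7 in C26 cachexia against 74.1, 91.5, 94.4 and 78.6 in C26 PBS. It had 68.9, 61.1, 47.99 and 66.3 in 8025 cachexia against 86.3, 86.7 and 89 in 8025 PBS. Every cachexia library was below every PBS library in both models, with log2 changes of -0.82 ± 0.14 (limma adjusted p = 2e-05) and -0.56 ± 0.15 (adjusted p = 0.0069). At 7.3 kb (chr15:82634525-82634925) the change was -1.34 ± 0.26 (adjusted p = 0.00024) in C26 and -1.20 ± 0.28 (adjusted p = 0.0028) in 8025, where cachexia replicate 4, at 21.8, stood apart from 6.74 to 8.87 in the other 3. The pseudogene Cyp2d37-ps had 6 lower regions of 34 in C26 and 2 in 8025. Its largest fall, 19.6 kb from the start, was -1.78 ± 0.53 (adjusted p = 0.022) in C26 with 6.60, 0.79, 8.43 and 5.14 in cachexia against 14.9, 14.02, 14.2 and 25.7 in PBS, and the call was lost without cachexia replicate 2 (-1.25) or without PBS replicate 4 and when only the C26 cohort was fitted. Smaller numbers were lower in C26 at Cyp2d12 and Cyp2d40 (2 each), Cyp2d10, Cyp2d26 and Cyp2d34 (1 each), and none at Cyp2d11 and Cyp2d22. The Cyp2d40 region 0.1 kb upstream of its start was lower in both models. Its log2 change was -0.64 in 8025 (limma adjusted p = 0.046), and the 2 lower Cyp2d40 regions in C26 were at -0.78 and -0.76.

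Cyp2d22, regarded as the mouse counterpart of human CYP2D6, had no region called in either cachexia comparison with PBS. Its main promoter region, the most accessible of the CYP2D promoters, lies in an intron 0.6 kb past the start (chr15:82379463-82379863) and not at the start itself. It had 150, 147, 152 and 135 in C26 cachexia against 105, 147, 133 and 101 in C26 PBS. The log2 change was +0.24 in C26 (limma adjusted p = 0.12) and -0.15 in 8025 (adjusted p = 0.44). The region at -0.3 kb (chr15:82380354-82380754) had 86.7, 109, 115 and 63.8 in C26 PBS, 58.4, 63.1, 48.9 and 47.1 in pre-cachexia, and 59.7, 98.1, 68.1 and 108 in cachexia. Pre-cachexia lay wholly below PBS, at -0.84 ± 0.16 (limma adjusted p = 0.0021), and cachexia was above pre-cachexia by 0.63 ± 0.16 (adjusted p = 0.012) with overlap. NC26 had 53.2, 63.4, 62.5 and 66.2 there with tumor against 91.7, 88.2, 63.6 and 93.4 in PBS, with 1 PBS library in the tumor range (-0.56, adjusted p = 0.15). The 3 regions between -0.3 and 0.0 kb of this start were all lower in pre-cachexia and all higher in cachexia than in pre-cachexia, but they overlap one another. Between cachexia and PBS the change at -0.3 kb was -0.21 and did not pass (adjusted p = 0.45).

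CYP2C, on chromosome 19, moved both ways: of 146 tested regions 23 were higher and 17 lower in C26, and 7 higher and 11 lower in 8025, with medians of 0.15 and 0.01 (log2). Of the 23 in C26, 16 belonged to Cyp2c70, which makes the muricholic acids of mouse bile, and none of its 44 regions was lower. Its called regions lie from 39.4 kb upstream to 41.9 kb downstream, at log2 changes of 0.67 to 2.42. Inside the Cyp2c70 gene body lie 8 of the 16, inside the neighbouring Pdlim1 3, and outside every RefSeq gene 5. In 8025 3 Cyp2c70 regions were higher, all between 35.7 and 31.5 kb upstream.

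The region with the largest rise of the family in both models lies 31.5 kb upstream of Cyp2c70 (chr19:40218564-40218964). It had 8.11, 8.29, 9.29 and 12.3 normalised tags in C26 PBS, 55.7, 29.98, 47.02 and 35.2 in pre-cachexia, and 69.2, 49.8, 63.2 and 43.9 in cachexia. In 8025 it had 44.1, 32.96, 38.7 and 50.9 in cachexia against 5.61, 11.99 and 4.37 in PBS. Neither stage of C26 overlapped its PBS group, nor did 8025 cachexia. The log2 change was 1.93 ± 0.42 in C26 pre-cachexia (limma adjusted p = 0.013), 2.42 ± 0.42 in C26 cachexia (adjusted p = 0.00012) and 2.41 ± 0.45 in 8025 cachexia (adjusted p = 0.00043). The pre-cachexia call was lost without pre-cachexia replicate 1 (1.77). The weight-stable tumors were not at the PBS level in every library: NC26 had 34.5, 11.99, 24.9 and 28.6 with tumor against 10.8, 8.4, 4.86 and 6.67 in PBS, which do not overlap, and MC38 had 4.55, 28.4, 3.93 and 17.8 against 2.60, 1.76, 2.53 and 9.43. Neither passed (1.43, adjusted p = 0.18, and 1.30, adjusted p = 0.51), and the difference between cachexia and weight-stable effects did not pass (0.99, adjusted p = 0.44 for C26 minus NC26, and 1.11, adjusted p = 0.46 for 8025 minus MC38). The Cyp2c70 promoter region shown above was at 0.33 in C26 and -0.14 in 8025, not called.

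**Figure D3:**
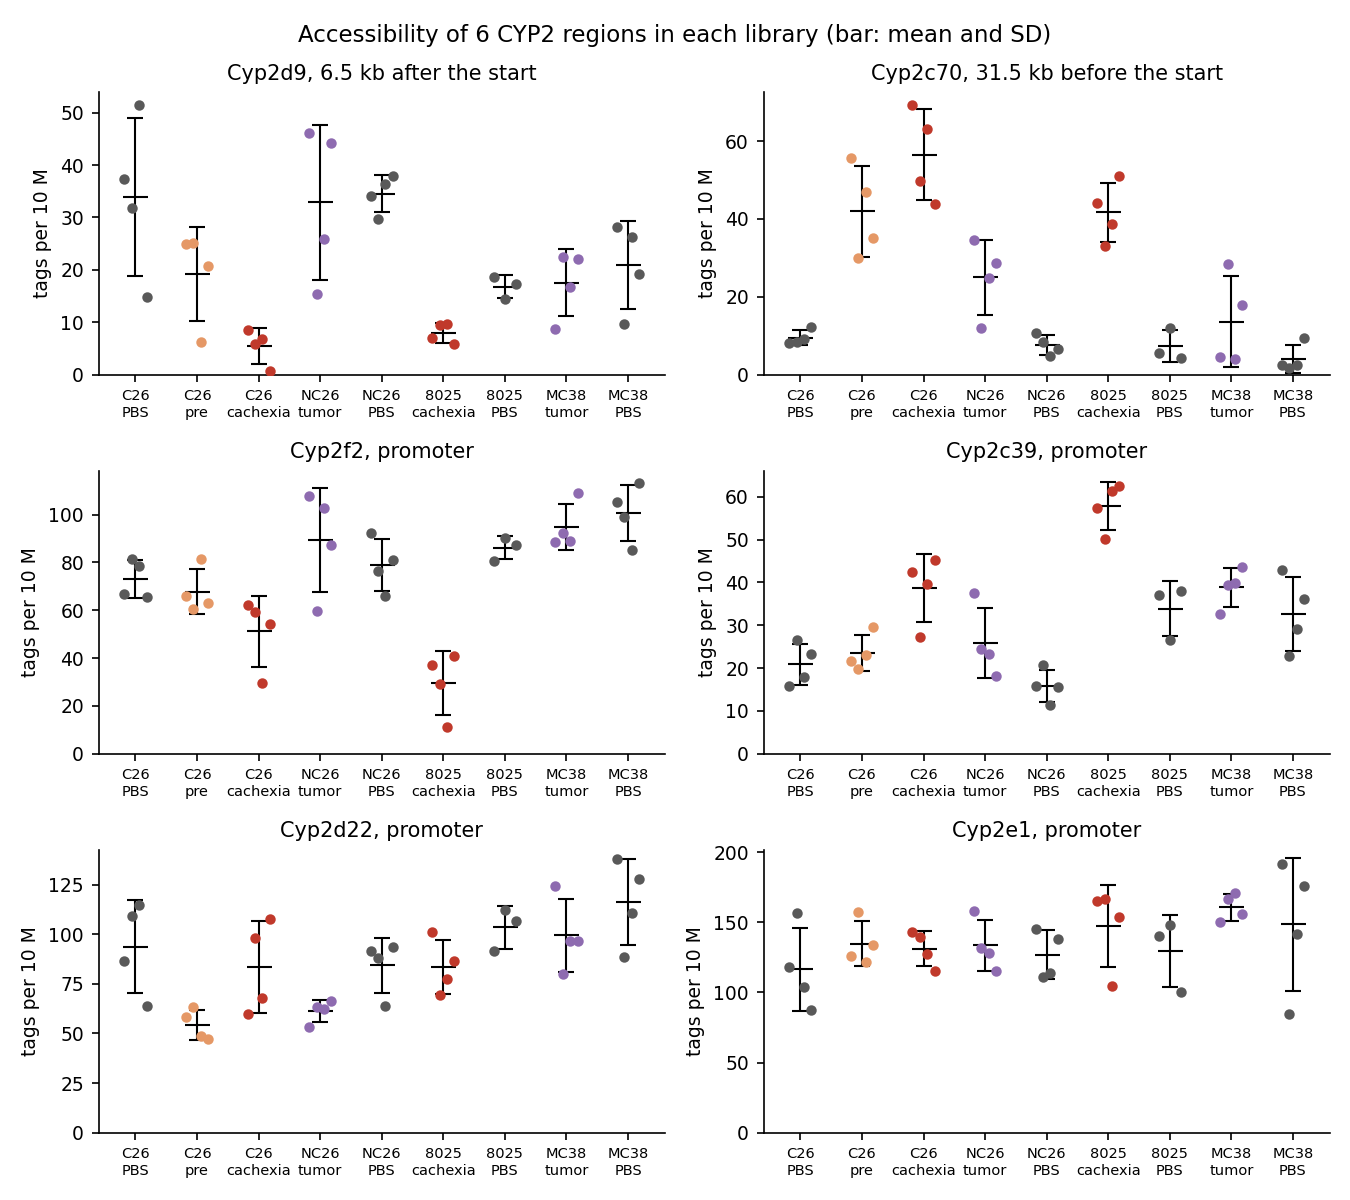
Normalised tags of every library at 6 CYP2 regions, by group, with group means and SD. The Cyp2d9 region at 6.5 kb and the Cyp2f2 promoter are lowest in a cachexia group, the Cyp2c70 region at -31.5 kb and the Cyp2c39 promoter are high in cachexia, the Cyp2d22 region dips in pre-cachexia, and at the Cyp2e1 promoter the groups overlap.

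The start of Cyp2c39, a retinoic acid hydroxylase, was the one main promoter region higher in both models (chr19:39510580-39510980). It had 42.5, 27.3, 39.5 and 45.3 in C26 cachexia against 15.8, 26.5, 17.96 and 23.2 in C26 PBS, and 57.4, 50.2, 61.3 and 62.6 in 8025 cachexia against 37.1, 26.4 and 38.1 in 8025 PBS. No cachexia library overlapped PBS. The log2 change was 0.83 ± 0.19 (limma adjusted p = 0.002) and 0.73 ± 0.21 (adjusted p = 0.014), and the 8025 call was lost without 8025 PBS replicate 2 (0.58). Pre-cachexia, at 21.7, 19.8, 22.97 and 29.5, was 0.09 above PBS (adjusted p = 0.92), and cachexia was 0.74 ± 0.19 above pre-cachexia (adjusted p = 0.015). The neighbouring Cyp2c38, an arachidonic acid epoxygenase in mice, had 22.4, 15.8, 21.1 and 20.6 at its promoter in C26 cachexia against 10.7, 12.8, 11.1 and 7.97 in C26 PBS, without overlap (0.83 ± 0.24, adjusted p = 0.013). In 8025 it had 26.9, 17.5, 21.5 and 15.7 in cachexia against 6.86, 12.3 and 18.5 in PBS, which overlap (0.69, adjusted p = 0.069, called without 8025 PBS replicate 4 at 0.95 and by DESeq2). A region 41.8 kb into Cyp2c39 went the other way in C26, with 10.03, 16.9, 13.00 and 13.04 in PBS, 14.5, 14.8, 15.1 and 15.3 in pre-cachexia, and 6.86, 7.12, 1.94 and 6.86 in cachexia. There the change of cachexia against pre-cachexia was -1.32 (adjusted p = 0.005), and without cachexia replicate 3, the library at 1.94, the change was -0.97 and not called.

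Losses in CYP2C gathered at other genes. Cyp2c23 (Cyp2c44 in older naming), an arachidonic acid epoxygenase, had 3 lower regions of 19 in C26 and 1 in 8025. The intronic region 4.2 kb past its start (chr19:44024819-44025219) had 8.18, 9.09, 6.16 and 5.49 in C26 cachexia against 19.2, 23.9, 20.1 and 24.99 in C26 PBS, and 8.28, 20.4, 12.8 and 18.3 in 8025 cachexia against 45.2, 36.3 and 44.8 in 8025 PBS. Both sets are without overlap, at -1.54 ± 0.36 (limma adjusted p = 0.0027) and -1.53 ± 0.38 (adjusted p = 0.0067). The 8025 call was lost when replicate numbers were fitted as blocks (-1.50). The other 2 lower regions in C26, at -15.15 and -14.954 kb, lie inside Erlin1. Cyp2c53-ps, a transcribed pseudogene, had 4 of 5 regions lower in C26 (-1.95 to -1.43), and the 3 farthest, 16.1 to 16.4 kb upstream, overlap one another. The nearest, 1.7 kb upstream (chr19:39227335-39227735), had 8.98, 7.12, 7.78 and 10.3 in C26 cachexia against 16.7, 27.4, 35.3 and 19.9 in C26 PBS, and 5.62, 2.67, 4.21 and 3.49 in 8025 cachexia against 16.8, 15.5 and 7.72 in 8025 PBS. Again no libraries overlapped, and the changes were -1.43 ± 0.27 (adjusted p = 0.00018) and -1.52 ± 0.30 (adjusted p = 0.00029). Cyp2c29, a CAR-inducible pericentral epoxygenase, had 4 lower regions of 17 in C26 (-1.62 to -1.42) and 4 in 8025 (-1.87 to -1.28). The 4 in C26 lie from -4.2 to 16.1 kb of its start, and those in 8025 from -19.9 to 60.2 kb. Of the latter, those at 60.1 and 60.2 kb lie inside Cyp2c39 and that at -19.9 kb inside Cyp2c53-ps. The region at 60.1 kb had no tag in any BALB/c library. Another region, 2.1 kb past the start, was higher in 8025, with 36.1, 25.7, 18.7 and 22.1 in cachexia against 13.1, 18.3 and 5.14 in PBS (1.09 ± 0.34, adjusted p = 0.03). That call was lost without 8025 cachexia replicate 1 or 2, without PBS replicate 4, or when only the 8025 cohort was fitted, under which the change was 0.56 to 1.08. Fewer regions were lower at Cyp2c50 (2 of 8 in C26), Cyp2c65 (1 of 2 in C26, 2 in 8025), Cyp2c66 (its 1 region in both) and Cyp2c67 (1 of 15 in C26, 2 in 8025). Cyp2c40, Cyp2c68 and Cyp2c69 had none.

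In CYP2A, 8 of 62 tested regions were lower in C26 and none higher, and 9 were lower and 1 higher in 8025, with medians of -0.19 and -0.38 (log2). All 8 in C26 and 7 of the 9 in 8025 had Cyp2a12, a mouse bile acid and steroid hydroxylase with 19 regions, as nearest gene. The 8 in C26 lie 7.6 to 43.7 kb past its start, and its regions from 8.6 kb on lie outside its gene body. The 7 in 8025 lie from -2.2 to 20.1 kb. The Cyp2a12 promoter region did not follow, with 68.2 ± 5.65 in C26 cachexia against 71.4 ± 16.5 in C26 PBS (SD, n = 4 each; log2 change -0.07, limma adjusted p = 0.8) and -0.12 in 8025 (adjusted p = 0.7). The region 18.5 kb past the start (chr7:27047420-27047820) had 13.5, 14.7, 12.7 and 13.8 in C26 PBS, 12.9, 15.2, 12.4 and 11.1 in pre-cachexia, and 5.54, 11.1, 8.43 and 2.06 in cachexia. Cachexia lay below PBS throughout (-1.12 ± 0.28, adjusted p = 0.004), while pre-cachexia overlapped PBS. The fall relative to pre-cachexia (-0.96, adjusted p = 0.033) was lost under 8 of the alternatives, among them leaving out any 1 pre-cachexia library or cachexia replicate 1 or 4 (-1.02 to -0.57). In 8025 the region 1.1 kb past the start had 6.51, 4.12, 4.84 and 7.56 in cachexia against 14.96, 8.46 and 16.5 in PBS (-1.09 ± 0.31, adjusted p = 0.012, lost without PBS replicate 1 or 4 at -0.97 and -0.95). The 1 higher region, at 31.1 kb, had 26.3, 24.7, 26.1 and 20.95 against 14.3, 10.9 and 17.8 (0.72, adjusted p = 0.045), and this call was lost under 8 alternatives, 5 of them single libraries left out (PBS replicate 1 or 2, cachexia replicate 1, 2 or 3; 0.56 to 0.77). Cyp2a5, the coumarin hydroxylase, had 2 regions lower in 8025 at 9.3 and 9.5 kb (-1.77 and -1.81) and none called in C26. Cyp2a4 and Cyp2a22 had none in either model.

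CYP2B had more rises than falls in C26, 6 higher and 2 lower of 38 tested, with a median of 0.15 (log2), and none called in 8025. Cyp2b10, the classical target of CAR, carried 5 of the 6 among 19 regions (0.92 to 1.52). The region 9.7 kb upstream (chr7:25887753-25888153) had 17.3, 18.5, 20.1 and 6.88 in C26 PBS, 16.6, 10.9, 10.3 and 24.7 in pre-cachexia, and 20.1, 37.2, 28.5 and 33.3 in cachexia. The lowest cachexia library lay within the PBS range, and the change was 0.92 ± 0.29 against PBS (limma adjusted p = 0.027) and 0.99 against pre-cachexia (adjusted p = 0.035). The promoter share as a term ended both calls. The first was also lost without cachexia replicate 2, 3 or 4 or PBS replicate 4 (0.64 to 0.91), and the second without cachexia replicate 2, 3 or 4 or pre-cachexia replicate 2 or 3 and with library totals (0.80 to 0.98). The Cyp2b10 promoter had 25.2 ± 7.34 in C26 cachexia against 22.1 ± 6.94 in C26 PBS (SD, n = 4 each; 0.16, adjusted p = 0.8), and 18.9 ± 5.29 in 8025 cachexia (SD, n = 4) against 26.8 ± 3.98 in 8025 PBS (SD, n = 3; -0.55, adjusted p = 0.3). Of the female-biased members, Cyp2b9 had 1 higher region at -4.1 kb, with 16.9, 17.8, 9.4 and 13.03 in C26 cachexia against 7.47, 9.56, 7.43 and 5.8 in C26 PBS (0.79 ± 0.25, adjusted p = 0.026), a call lost without cachexia replicate 1 or 2 or PBS replicate 3 or 4 or with the promoter share as a term (0.68 to 0.76). Cyp2b13 had 2 lower regions, at -74.4 and -74.2 kb.

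Cyp2f2, known for activating naphthalene in mouse lung and also expressed in liver, is the only gene of CYP2F here, and of the 8 subfamilies CYP2F had the largest share of lower regions in 8025, 11 of 22, with a median of -0.60 (log2) over its regions. In C26 1 was higher and 1 lower. The promoter region (chr7:27119656-27120056) had 36.97, 29.3, 11.2 and 41.02 in 8025 cachexia against 80.7, 90.2 and 87.5 in 8025 PBS. It had 62.04, 59.3, 29.5 and 54.2 in C26 cachexia against 66.8, 81.6, 78.3 and 65.6 in C26 PBS. Cachexia lay wholly below PBS in both, but the change passed in 8025 (-1.69 ± 0.26, limma adjusted p = 3.3e-05) and not in C26 (-0.59 ± 0.24, adjusted p = 0.1), where DESeq2 and a fit of the C26 cohort alone called it. The difference of the cachexia effects, C26 minus 8025, was 1.10 ± 0.35 and did not pass (adjusted p = 0.26). At 16.8 kb (chr7:27136594-27136994) 8025 cachexia had 2.96, 6.06, 3.16 and 5.53 against 15.6, 13.04 and 21.1 in PBS (-1.74 ± 0.34, adjusted p = 0.00029). The overlapping region at 16.6 kb was lower in both models, at -1.41 (adjusted p = 0.0071) in C26 and -1.38 (adjusted p = 0.018) in 8025, and the C26 call was lost without cachexia replicate 3, the library at 0.65 (-0.82). The intronic region at 5.2 kb rose in C26, with 26.04, 37.3, 29.1 and 26.1 in PBS, 42.6, 36.3, 51.1 and 36.9 in pre-cachexia, and 65.7, 66.03, 61.6 and 55.5 in cachexia. Cachexia was there 1.02 ± 0.17 above PBS (adjusted p = 2.1e-05), and in 8025 the change was 0.44 (adjusted p = 0.12).

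At Cyp2e1, which oxidises ethanol and acetaminophen, none of 21 regions was called in any of the 10 comparisons. The promoter (chr7:140763400-140763800) had 143, 139, 127 and 115 in C26 cachexia against 118, 157, 104 and 87.3 in C26 PBS, and 165, 166, 105 and 154 in 8025 cachexia against 140, 148 and 100.1 in 8025 PBS. The groups overlapped in both, at 0.16 ± 0.15 (limma adjusted p = 0.55) and 0.15 ± 0.16 (adjusted p = 0.64). Over the 21 regions the median log2 change in pre-cachexia was 0.61 against PBS, with 18 positive, and cachexia against pre-cachexia was at -0.35, with 18 negative. The medians of all regions were 0.003 and 0.002. Several of the 21 regions overlap, and both comparisons use the same pre-cachexia libraries. A shift of the locus as a whole was not tested. In CYP2J, whose member Cyp2j5 is an arachidonic acid epoxygenase of kidney and liver, 3 of 26 regions were higher and 1 lower in C26 and none called in 8025. The Cyp2j5 promoter had 106, 110, 82.3 and 109 in C26 cachexia against 104, 148, 124 and 80.1 in C26 PBS (-0.17, adjusted p = 0.42), and its change in 8025 was -0.37 (adjusted p = 0.064, called by edgeR, with the promoter share as a term, with the 8025 cohort alone and without 8025 cachexia replicate 2). The rises were 2 regions 28.3 and 28.5 kb past the Cyp2j5 start and 1 at Cyp2j9. Cyp2g1, best known from olfactory mucosa, had 5 weak regions, of which 1, at 8.2 kb, had 0.43, 3.19, 2.79 and 2.9 in C26 PBS, 12.3, 13.1, 6.22 and 9.65 in pre-cachexia, and 11.9, 1.58, 6.48 and 8.23 in cachexia (1.80, adjusted p = 0.013, and 1.18, adjusted p = 0.044, against PBS).

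**Figure D4:**
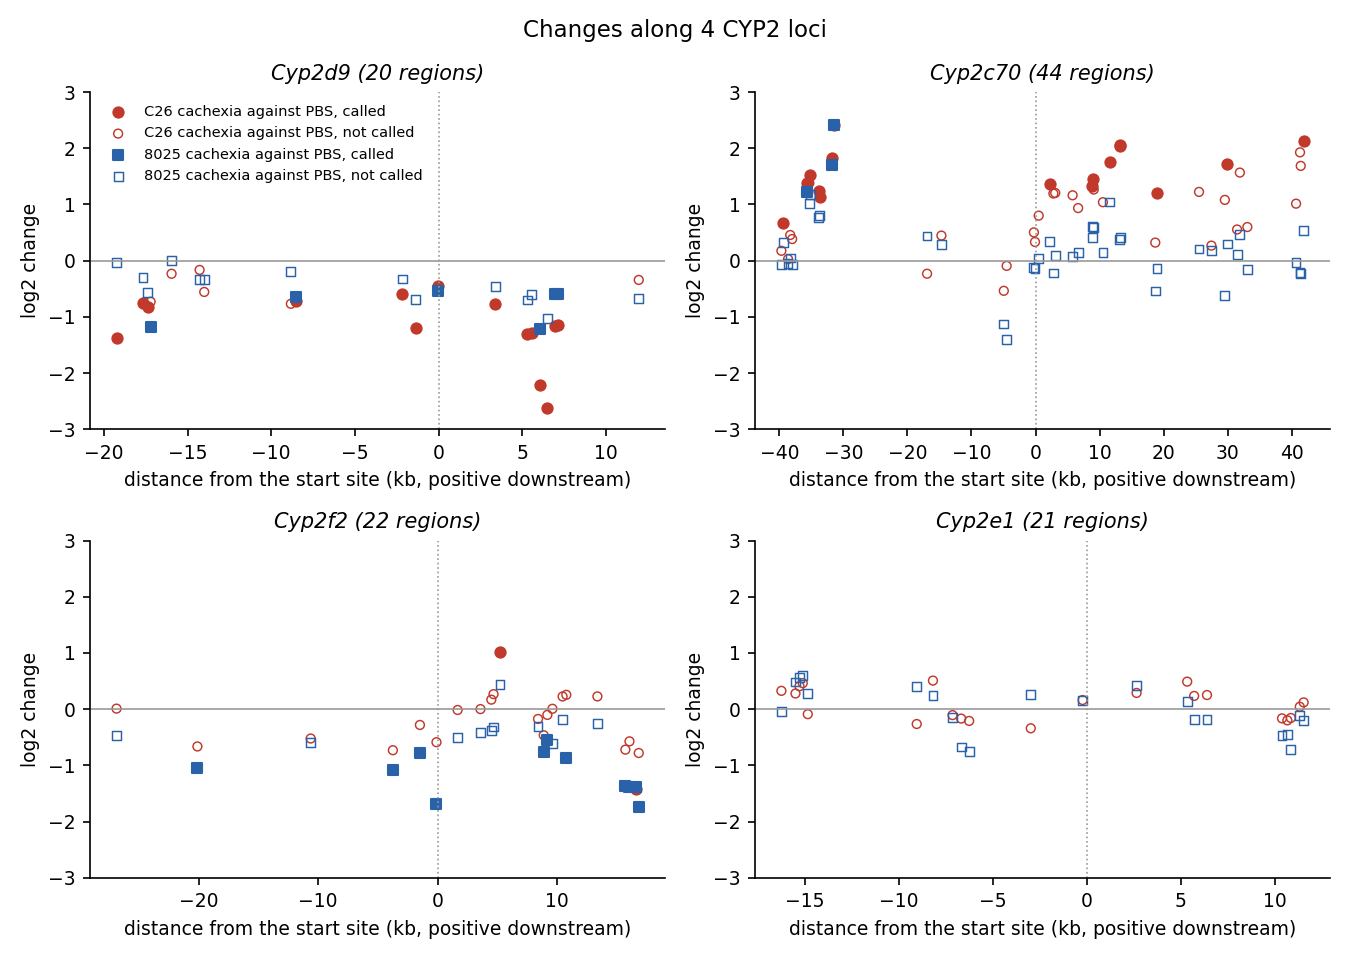
Log2 change of each tested region against its distance from the start site at Cyp2d9, Cyp2c70, Cyp2f2 and Cyp2e1, in C26 and 8025 cachexia against PBS; filled points are called. Lower regions at Cyp2d9 and Cyp2f2 and higher regions at Cyp2c70 reach beyond 10 kb from the start, and Cyp2e1 has none called.

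The 2 models share no mice, and their lists of called regions can be set side by side. Lower in both were 24 regions, which is 39.3% of the 61 in C26 and 52.2% of the 46 in 8025 (36.7% and 49.1% for all lower regions). Higher in both were 6, which is 17.6% of the 34 in C26 and 75% of the 8 in 8025 (45% and 46.3% for all higher regions). None was called in opposite directions. Of the 61 lower in C26, 59 had a negative change in 8025, and of the 34 higher in C26, 32 had a positive one, which over all regions held for 91.4% of the lower and 92.4% of the higher. The difference between the 2 cachexia effects was called by limma at none of 457 regions (0.101% of all called in either direction, 0.0271% higher and 0.074% lower), at 0 by edgeR and at 1 by DESeq2.

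**Figure D5:**
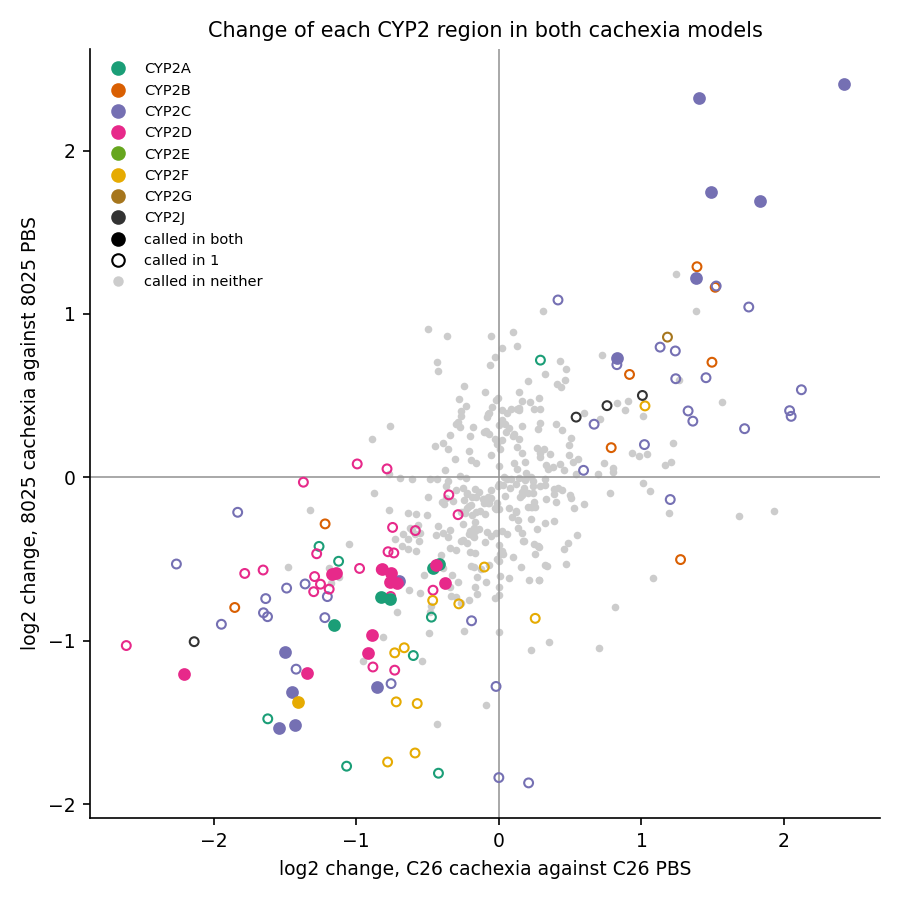
Log2 change in C26 cachexia (x axis) against log2 change in 8025 cachexia (y axis) for the 457 tested CYP2 regions, coloured by subfamily where called and filled where called in both models. The 24 regions lower in both lie at the lower left, the 6 higher in both at the upper right, and none is called in opposite directions.

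In C26 pre-cachexia 3 CYP2 regions were higher than PBS and 4 lower (1.05% and 0.264% of all regions, 1.31% in either direction). The higher ones are 2 at Cyp2c70 and 1 at Cyp2g1, and the lower ones are 3 at Cyp2d22 and 1 at Cyp2d9. Scaling by library totals gave 7 higher and 2 lower. Between cachexia and pre-cachexia 11 were higher and 18 lower (2.23% and 3.2% of all, 5.43% in either direction), and 4 and 16 with library totals. The higher included 4 at Cyp2b10 and 3 at Cyp2d22, and the lower 5 at Cyp2d9 and 4 at Cyp2a12. At Cyp2d9 6.5 kb the change of cachexia against pre-cachexia was -1.70 (limma adjusted p = 0.014), lost without pre-cachexia replicate 2 or cachexia replicate 4, with the C26 cohort fitted alone or with the promoter share as a term (-1.69 to -1.14). At Cyp2d10 -9.8 kb cachexia had 21.1, 25.3, 18.5 and 18.9 against 14.5, 13.4, 7.30 and 15.6 in pre-cachexia, without overlap (0.77, adjusted p = 0.036), but 8 alternatives ended the call, among them leaving out any 1 cachexia library or pre-cachexia replicate 2 or 3 (0.58 to 0.81). The pre-cachexia and cachexia comparisons share the C26 PBS mice, and the cachexia values against each are not independent of one another. The pre-cachexia count was 4 without PBS replicate 1 or pre-cachexia replicate 1 and 12 without PBS replicate 4, and that of cachexia against pre-cachexia was 10 without pre-cachexia replicate 2 and 14 without cachexia replicate 4.

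No CYP2 region was called in the weight-stable tumors by the main limma fit or by limma within either library series. In NC26 0 of 457 were called (0.177% of all regions, 0.137% higher and 0.0407% lower), and 0 by edgeR and DESeq2. In MC38 0 were called (0.0186% of all, 0.0181% higher and 0.000565% lower), 0 by edgeR and 1 by DESeq2. Without NC26 tumor replicate 2, 2 regions were lower in NC26. That an effect passed in cachexia and not in a weight-stable cohort does not show a difference, and the difference itself was tested. The C26 effect exceeded the NC26 effect at 2 regions and was below it at 13 (1.2% and 1.02% of all, 2.22% in either direction), and at 0 and 9 with library totals. Cyp2d9 held 4 of the 13 and Cyp2c53-ps 3, and both higher regions were at Cyp2c70. At Cyp2d9 6.0 kb NC26 had 50.4, 34.7, 44.7 and 49.3 with tumor against 47.7, 37.1, 42.2 and 61.9 in PBS, and the difference of effects was -2.02 ± 0.38 (limma adjusted p = 0.0019). At 6.5 kb it was -2.31 ± 0.60 (adjusted p = 0.034), but 12 alternatives ended that call (-2.38 to -1.75). At the Cyp2d13 start it was -0.72 ± 0.19 (adjusted p = 0.031, lost under 11 alternatives at -0.80 to -0.59), and at Cyp2a12 18.5 kb -1.41 (adjusted p = 0.045, lost under 18). The count for C26 minus NC26 fell to 7 to 9 without C26 cachexia replicate 4, NC26 PBS replicate 1, 2 or 3, or NC26 tumor replicate 3.

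The 8025 effect was below the MC38 effect at 5 regions (0.749% of all) and above it at none (0.96% of all, 1.71% in either direction). These were 2 at Cyp2f2, 2 at Cyp2c29 and 1 at Cyp2c65. At the Cyp2f2 promoter MC38 had 88.5, 92.5, 89.2 and 109 with tumor against 105, 99.2, 85.3 and 113 in PBS, which overlap, and the difference of effects was -1.55 ± 0.35 (limma adjusted p = 0.017). It was not called without 8025 PBS replicate 2 or in a fit of the 8025 and MC38 cohorts alone (-1.57 and -1.51). The count of 5 depended on single libraries: it was 0 without 8025 PBS replicate 2, 1 without 8025 cachexia replicate 1 or 2, 2 without MC38 tumor replicate 2, 3 without MC38 tumor replicate 3 or MC38 PBS replicate 1 or 3, and 8 without 8025 PBS replicate 4.

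Between strains, 24 CYP2 regions were higher and 32 lower in BALB/c PBS mice (C26 and NC26 cohorts) than in C57BL/6N PBS mice (8025 and MC38 cohorts), against 6.41% and 7.06% of all regions (13.5% in either direction), and 11 and 28 with library totals. CYP2D had 11 higher and 2 lower and CYP2C 4 higher and 21 lower. Cyp2d9 had 9 of its 20 regions higher in BALB/c (0.42 to 1.10 on the log2 scale), among them the region at 6.0 kb, with 49.1, 43.02, 65.9 and 32.6 in C26 PBS and 47.7, 37.1, 42.2 and 61.9 in NC26 PBS, against 31.8, 23.3 and 26.2 in 8025 PBS and 38.4, 18.1, 42.98 and 24.3 in MC38 PBS (0.88 ± 0.22, limma adjusted p = 0.0034). The strains overlap there. The region at 6.5 kb, at 1.05 (adjusted p = 0.039), lost its call under 12 alternatives (0.73 to 1.08). Cyp2c23 had 5 lower regions (-2.45 to -1.10). At 2.0 kb past its start (chr19:44027008-44027408) it had 9.61, 14.7, 8.36 and 10.9 in C26 PBS and 15.8, 17.1, 11.4 and 22.5 in NC26 PBS, against 26.2, 44.8 and 36.5 in 8025 PBS and 57.2, 29.5, 24.7 and 34.4 in MC38 PBS. Every BALB/c library was below every C57BL/6N one (-1.29, adjusted p = 1.6e-05). The Cyp2a22 region at -14.1 kb had 4.27, 6.05, 4.33 and 2.17 in C26 PBS and 4.15, 9.80, 1.62 and 5.46 in NC26 PBS, against 26.8, 23.6 and 13.1 in 8025 PBS and 36.7, 17.2, 9.48 and 25.9 in MC38 PBS (-2.01 ± 0.29, adjusted p = 9.3e-07). The strains overlap there by a single library on each side.

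The Cyp2c39 start was lower in BALB/c by -0.88 (limma adjusted p = 4.4e-05), as was the region at -1.1 kb (-0.92, adjusted p = 0.00013, not called in series A libraries alone at -0.62). Cyp2c53-ps at -1.7 kb was higher (0.80, adjusted p = 0.01), and lost the call without MC38 PBS replicate 2 or 8025 PBS replicate 4 and within either library series (0.55 to 0.89). The Cyp2j11 region at 17.9 kb was higher (0.89, adjusted p = 0.019), where MC38 PBS replicate 2 stood at 3.09 and the other C57BL/6N PBS libraries at 18.2 to 39.3, and 7 alternatives ended the call, leaving out that library among them (0.45 to 1.46). Within library series A alone 20 CYP2 regions differed between strains and within series B 27. Outside the naming rule, and chosen after their values were seen, 3 regions near 60 kb past the Cyp2c29 start (chr19:39346065-39346465, chr19:39346215-39346615 and chr19:39346968-39347368) had no tag in any of 20 BALB/c libraries. The 15 C57BL/6N libraries had medians of 9.26, 8.81 and 15.8 and means of 9.23, 9.16 and 14.4 there. Against a floor of 3 read ends over the 20 libraries (0.0499 normalised tags), the mean of C57BL/6N put BALB/c at least 185-fold, 183-fold and 289-fold lower. The reads were aligned to mm10, which was built from C57BL/6J mice, and the part of sequence differences in these values was not tested. In C57BL/6N the last of the 3 and its overlapping neighbour were lower in 8025 cachexia, and the neighbour had 4.44, 4.12, 11.2 and 6.98 in cachexia against 21.8, 31.02 and 22.6 in PBS (-1.87 ± 0.36, adjusted p = 0.00027).

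Among groups of members defined by textbook expression pattern, the female-biased Cyp2a4, Cyp2b9, Cyp2b13, Cyp2c40 and Cyp2c69 had 1 higher and 2 lower of 24 tested regions in C26 and none in 8025. No main promoter region of these female-biased genes was tested. Their 2 lower regions lie 74.4 and 74.2 kb upstream of Cyp2b13, inside the pseudogene Cyp2b28-ps. The male-biased list held 1 gene, Cyp2d9, which had 14 lower of 20 in C26 and 6 in 8025. A difference between the female-biased and male-biased lists was not tested. The CAR- or PXR-inducible Cyp2b10, Cyp2c29 and Cyp2c55 had 6 higher and 4 lower of 41 in C26, and 1 higher and 4 lower in 8025. The pericentral Cyp2e1, Cyp2c29 and Cyp2a5 had 4 lower of 57 in C26, and 1 higher and 6 lower in 8025. In both of these lists the Cyp2c29 regions lower in 8025 include those inside Cyp2c39 and Cyp2c53-ps named above. The epoxygenase list held Cyp2c23 and Cyp2j5 only, without Cyp2c38 and Cyp2c29 described above, and had 2 higher and 3 lower of 29 in C26, and 1 lower in 8025. These shares stand against 7.44% higher and 6.8% lower of all regions in C26, and 7.24% and 5.07% in 8025.

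Outside the family, promoter regions of P450 partners and heme supply genes were higher at 2 of 7 in C26 (median 0.18, log2) and called at none in 8025 (median -0.10). These were Por, the P450 reductase, at 0.35 (limma adjusted p = 0.0063), and Cyb5a, a cytochrome b5, at 0.19 (adjusted p = 0.026). Of 11 regulators of P450 genes 2 were higher in each model and none lower: Ahr, the dioxin receptor, at 0.36 in C26 and 0.35 in 8025, Ppara at 0.22 in C26, and Nr1i3, which encodes CAR, at 0.57 in 8025. Of 7 regulators of growth hormone response and sex bias 1 was lower in each, Stat5a at -0.46 in C26 and Foxa2 at -0.71 in 8025. Where these genes were called, cachexia and PBS libraries overlapped at Por, Cyb5a, Ahr, Ppara and Stat5a, and not at Nr1i3 and Foxa2. Of 14 other hepatic P450 promoters 1 was higher and 3 lower in C26, and 1 higher and 2 lower in 8025. Cyp3a13 was higher in both (0.56 and 0.41), Cyp1a2 (-0.56 and -0.60) and the male-biased fatty acid hydroxylase Cyp4a12a (-1.45 and -3.05, adjusted p = 0.0019 and 8.7e-08) were lower in both, and Cyp3a11 was lower in C26 (-1.59, adjusted p = 0.029). The medians of that list were 0.21 in C26 and -0.38 in 8025. These counts stand against all regions within 1 kb of a start, of which 7.55% were higher and 2.88% lower in C26. In 8025 the shares were 3.02% and 3.95%.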

How the data were processed

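ATAC-seq signal was deposited by the authors as a matrix of 177904 regions of 400 bp in 35 libraries. Per the file headers, each value is a tag coverage in the region scaled to 10 M tags of the library, and the submitters' processing notes name BWA 0.7.5a-r405, SAMtools, HOMER and mm10. How duplicate reads were treated and how peaks were called is not given in the sources used here. All values (100%, within 0.05 tag) are whole multiples of a read end, worth 0.5 tag, so counts of read ends were recovered.

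Regions were kept by edgeR's filterByExpr (minimum count 10, minimum total 15) on read ends, which removed 947. The values, scaled by TMM factors, were taken as log2(value + 1), and limma-trend with robust empirical Bayes fitted all 9 groups together with the library series in the names (A or B). The planned design gave edgeR's count test for whole counts and this one for scaled tags, which the file holds. Tests were two-sided, with Benjamini-Hochberg adjustment over 176957 regions and a threshold of 0.05. Fold changes understate those of low regions. All C26 libraries are of series A and all 8025 libraries of series B, while NC26 and MC38 replicates 1 and 2 are A and 3 and 4 are B. Samples were grouped by the labels. No libraries of a group were identical. Depth sets the counting error of each value, and PCR copies are not independent molecules.

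Alternatives were other scalings (library totals, RLE factors, cyclic loess), pseudocounts 0.5 and 5, no filter, no library series, the promoter share as a term, a replicate block, cohorts compared only, edgeR, DESeq2, single library series, starts within 10 kb and each library left out. A fit of PBS groups only was added after the data were seen. The method was tested on simulated data. Promoter sequences came from RefSeq (GRCm38.p6). The software was limma 3.58.1, DESeq2 1.42.0, edgeR 4.0.16 and the data.table package (1.17.8) in R 4.3.3, and pandas 2.3.3, numpy 2.4.6 and matplotlib 3.10.9 in Python 3.11.15. Members and lists were chosen with earlier results of these data known. Regions were named by rule: main promoter regions called in a cachexia comparison (at most 4 per subfamily) and the highest promoter of each subfamily, then the largest called rises and falls per comparison (6 and 6 in each cachexia model, 3 and 3 elsewhere) among regions at or above the family's median value, 1 per gene and direction.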

Additional observations from a re-analysis of the deposited data

Results flagged for a closer look

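In 70 combinations of a named region and a group of 4 libraries, a single library stood apart from the others in 4 (5.71%), by a test that chance flags in about 1 of 20 groups. C26 cachexia replicate 3 was lowest at the Cyp2j5 promoter (82.31 normalised tags) and 41.8 kb into Cyp2c39 (1.94). C26 PBS replicate 4 was highest at the Cyp2d37-ps region 19.6 kb from the start (25.72), and 8025 cachexia replicate 4 at the Cyp2d13 region at 7.3 kb (21.82).

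At 5 named regions the cachexia effect differed from that of the weight-stable tumor of the same strain by the limma test of the difference. For C26 minus NC26 the log2 difference was -2.3081 at Cyp2d9 6.5 kb, -2.0241 at Cyp2d9 6.0 kb, -1.4118 at Cyp2a12 18.5 kb and -0.7216 at the Cyp2d13 start. For 8025 minus MC38 it was -1.5499 at the Cyp2f2 promoter.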

How the results depend on the processing

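For CYP2 regions called, scaling by library totals gave 32 in 8025 cachexia (54 as reported), 9 for C26 minus NC26 (15) and 3 for 8025 minus MC38 (5). Pseudocount 5 gave 13 in C26 pre-cachexia (7), 1 in MC38 (0) and 2 for C26 minus 8025 (0), and pseudocount 0.5 gave 1 for 8025 minus MC38. Fitting only the cohorts compared gave 15 in pre-cachexia and 3 for 8025 minus MC38. DESeq2 gave 18 in pre-cachexia, 1 in MC38, 10 for 8025 minus MC38 and 1 for C26 minus 8025, edgeR gave 9 for C26 minus NC26, the promoter share as a term 19 for cachexia against pre-cachexia (29), and cyclic loess 1 for C26 minus 8025. Between strains, series A alone gave 20 and series B alone 27 (56). Keeping starts within 10 kb, by construction fewer regions, gave 42 in C26 cachexia (95), 19 for cachexia against pre-cachexia, 31 in 8025, 6 for C26 minus NC26, 3 for 8025 minus MC38 and 30 between strains. For the other settings the cause was not tested.

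Same-numbered libraries of a cohort did not deviate together (23 pairs, r = -0.157 to 0.0706), so the numbers do not pair the samples. The replicate block gave 92 in C26 cachexia, 8 in pre-cachexia, 30 for cachexia against pre-cachexia, 41 in 8025, 1 in MC38, 15 for C26 minus NC26 and 4 for 8025 minus MC38, and it ended 4 calls of named regions (Cyp2c23 4.2 kb and Cyp2a12 31.1 kb in 8025, Cyp2d9 6.5 kb and Cyp2a12 18.5 kb for C26 minus NC26) and made 1, the Cyp2f2 promoter in C26. Leaving out 1 library gave 70 to 79 in C26 cachexia, 4 to 12 in pre-cachexia, 10 to 33 for cachexia against pre-cachexia, 35 to 49 in 8025 (35 without PBS replicate 1), 0 to 2 in NC26, 7 to 14 for C26 minus NC26, 0 to 8 for 8025 minus MC38, and 43 to 61 between strains. It turned the direction of 2 uncalled promoters: Cyp2b10 in C26 (-0.013 without PBS replicate 4, up to 0.3413) and Cyp2e1 in 8025 (-0.0804 without PBS replicate 4, up to 0.2927). Of all values of the 56 named results under the alternatives, 1032 kept direction and side of the threshold, 138 lost the call, 9 gained it and 2 reversed. Between strains the block could not be fitted, since each number belongs to 1 cohort, and fitting only the cohorts compared was not run, since these are all 4. A fit of the PBS groups alone, added after the data were seen, gave 46.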
